A study of Mus musculus with 18 samples.

Results

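The molecular clock was followed through its 10 best known genes, namely Arntl (also called Bmal1), Clock, Per1, Per2, Per3, Cry1, Cry2, Nr1d1, Nr1d2 and Dbp, in RNA-Seq of mouse small intestinal crypts. These genes were picked by name from the 55335 genes of the count table, and all 10 were among the 21349 genes that had enough counts to be tested. The study compared intestinal epithelium-specific Prmt1 knockout (KO) mice with control (WT) mice at day 2, day 7 and day 14 after the first tamoxifen injection, with 3 libraries per group and 18 in all. The 3 of a group were separate mice. KO mice carried LoxP-flanked PRMT1 alleles (PRMT1fl/fl) and Vil-CreERT2, a tamoxifen-inducible Cre driven by the villin promoter, so that deletion was aimed at epithelial cells. WT mice were PRMT1fl/fl without Cre and also received tamoxifen, so all 6 groups were given the drug, though not in the same number of doses. Mice were 8 to 12 weeks old and were given 2 mg of tamoxifen per injection, up to 5 daily injections from day 0. The day 2 mice were collected before the injection due that day, so they had received fewer injections than the day 7 and day 14 mice. Time since the last injection also differed between days. Neither can be told apart from day in the comparisons between days. KO and WT mice were matched for age and sex. The sex of each library and the time of day at which each mouse was killed are not given in the sources used here. Both sexes were used, and the paper does not say that sex was balanced between days, so sex cannot be told apart from day. For clock genes, whose RNA changes over the day, a difference in collection time between groups cannot be told apart from a difference of genotype or day, and this holds for every comparison below.

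The clock is a feedback loop present in nearly every cell. ARNTL pairs with CLOCK, or with its relative NPAS2, and switches on the Per, Cry, Nr1d1, Nr1d2 and Dbp genes through E-boxes. PER and CRY proteins then block the pair, and the NR1D proteins (REV-ERBs) repress Arntl. As a consequence Arntl and Npas2 RNA peak roughly opposite to Dbp, Nr1d1, Nr1d2 and Per3 RNA over the day, with Per2 and Cry1 later than Dbp. In the intestine this rhythm is set largely by feeding and is known for nutrient transport, digestion and the timing of cell division.

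Libraries held 12844642 to 31493484 counts in genes. The 20 most abundant genes held 18.6% to 21.3% of these counts in the day 2 libraries and 20.7% to 24.8% in WT day 7. In KO day 7 and the day 14 libraries they held 23.5% to 32.9%. The part of this share in the clock gene differences was not tested. Prmt1 itself was between 13.1 and 17.4 CPM (the count scaled to a common library size, as counts-per-million) in the 9 KO libraries and between 20.2 and 30.6 CPM in the 9 WT libraries. No library went against its label, and the cause of the Prmt1 level that remained in KO was not tested. The 6 intestinal epithelium markers (Vil1, Epcam, Cdh1, Krt8, Krt20 and Cdx2) had at least 1196 counts in every library, and their summed level was 3998 to 8567 CPM. Immune cell markers summed to 70.3 to 208 CPM and stromal cell markers to 16.2 to 181 CPM. These are bulk libraries, in which fewer cells of a type and less RNA per cell cannot be told apart.

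Promoter windows are shown for Arntl, Per3, Nr1d2 and Dbp, because these are the members that differed between the day 14 and day 7 WT groups. Each is taken from RefSeq on GRCm38.p6, the build of the count table (mm10), spans 250 bases before to 50 bases after a start, and is written 5′ to 3′ on the gene's strand. Capitals mark exact matches, on either strand, to 4 motifs: the E-box CACGTG and its variant CACGTT (ARNTL with CLOCK), the D-box TTATGTAA (DBP, TEF, HLF and NFIL3) and TAGGTCA, the core of the element shared by ROR and REV-ERB receptors. The windows lie at chr7:113207261-113207560 on the plus strand for the second of 2 Arntl starts, chr4:151044616-151044915 on the minus strand for Per3, chr14:18239057-18239356 on the minus strand for Nr1d2 and chr7:45704997-45705296 on the plus strand for Dbp.
Arntl: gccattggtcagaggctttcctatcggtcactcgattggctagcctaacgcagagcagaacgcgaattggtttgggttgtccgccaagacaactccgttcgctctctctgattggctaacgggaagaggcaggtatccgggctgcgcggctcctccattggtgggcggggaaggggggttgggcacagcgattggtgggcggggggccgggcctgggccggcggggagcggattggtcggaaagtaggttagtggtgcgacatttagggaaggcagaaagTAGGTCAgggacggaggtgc
Per3: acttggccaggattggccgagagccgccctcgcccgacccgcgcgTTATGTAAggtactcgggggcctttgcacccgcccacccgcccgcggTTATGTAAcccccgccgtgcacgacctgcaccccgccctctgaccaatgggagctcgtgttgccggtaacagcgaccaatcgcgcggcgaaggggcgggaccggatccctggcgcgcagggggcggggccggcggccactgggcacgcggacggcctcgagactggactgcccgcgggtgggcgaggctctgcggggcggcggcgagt
Nr1d2: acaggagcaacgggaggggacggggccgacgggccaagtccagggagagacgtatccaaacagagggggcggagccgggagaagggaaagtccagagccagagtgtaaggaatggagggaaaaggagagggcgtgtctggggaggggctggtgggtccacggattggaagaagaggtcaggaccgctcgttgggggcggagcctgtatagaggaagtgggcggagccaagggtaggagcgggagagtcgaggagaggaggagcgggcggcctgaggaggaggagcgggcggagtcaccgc
Dbp: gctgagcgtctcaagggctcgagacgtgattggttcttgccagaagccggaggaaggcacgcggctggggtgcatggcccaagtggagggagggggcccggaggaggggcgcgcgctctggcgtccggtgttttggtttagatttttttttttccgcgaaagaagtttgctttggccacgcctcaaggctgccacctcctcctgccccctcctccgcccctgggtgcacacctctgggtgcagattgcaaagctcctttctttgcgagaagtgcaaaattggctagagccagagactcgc

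The Per3 window held 2 D-boxes, at -205 and -158 from the start, a motif found in 0.938% of all 32851 windows of this length. The Arntl window held TAGGTCA at position 31 after its start, a motif in 2.61% of windows, while the window of the other Arntl start, which overlaps it, held no match. Neither the Nr1d2 nor the Dbp window held any of the 4 motifs. Among the other members with a window, CACGTG stood at -166 in Per1 and at -60 in Cry1 (7.15% of windows), and CACGTT, read on the opposite strand as AACGTG, at -79 in Cry1, -166 in Cry2 and -28 in Nr1d1 (4.68% of windows). No window was given for Per2, and none of the 3 Clock windows held a match. These are matches of letters and carry no measurement of binding.

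**Figure D1:**
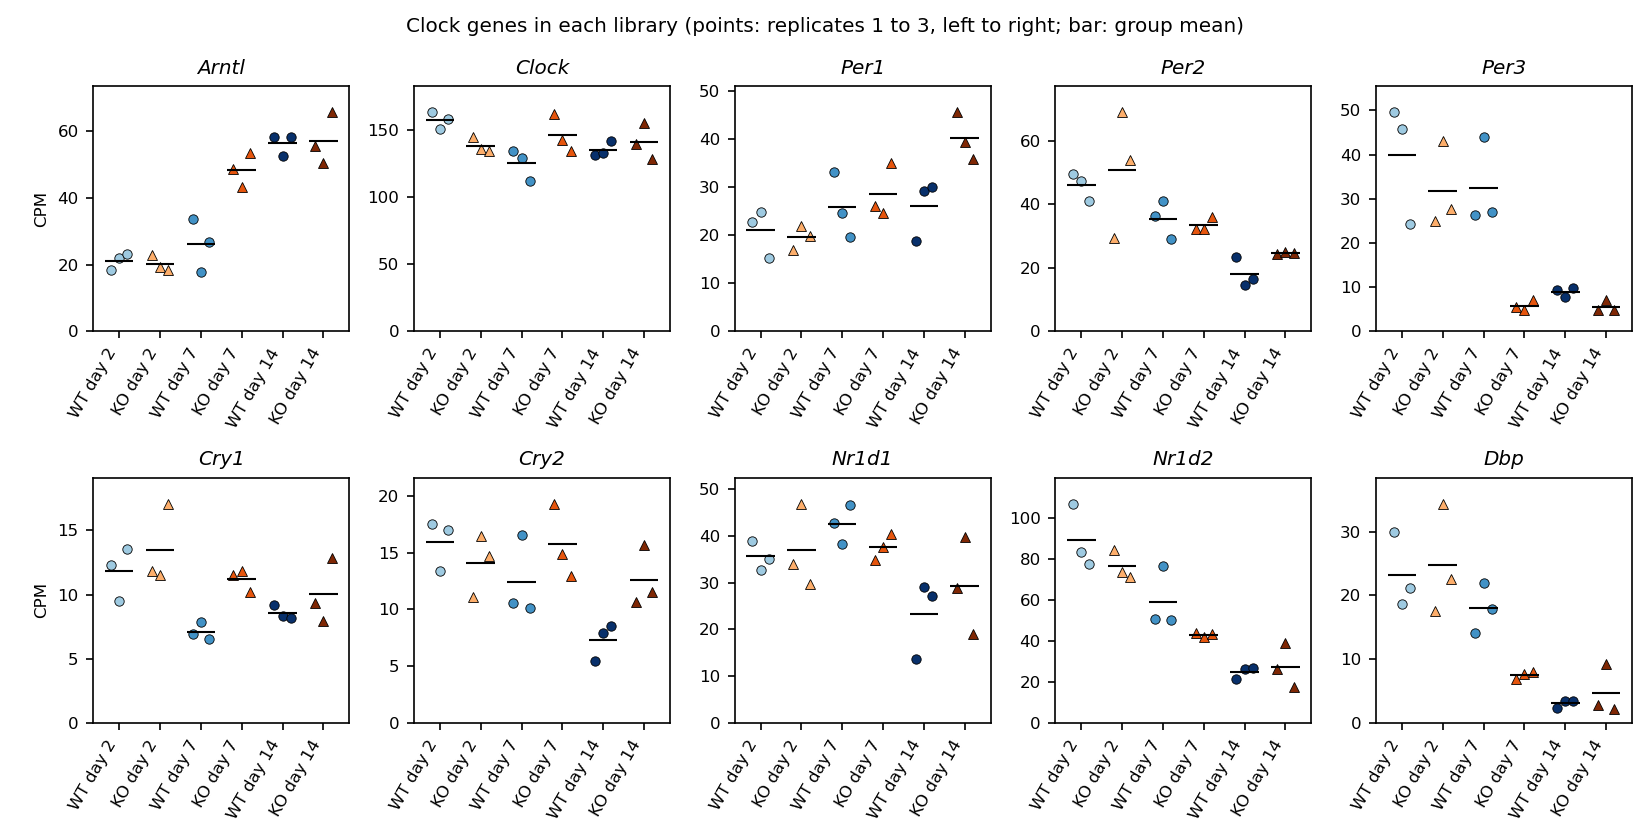
CPM of each clock gene (y axis, from 0) in the 18 libraries, grouped by genotype and day on the x axis; circles are WT, triangles are KO, and the bar is the group mean of 3 libraries. Arntl was at 43.2 CPM or more in every KO day 7, WT day 14 and KO day 14 library and at 33.7 CPM or less in every other library, while Per3 and Dbp had the opposite layout.

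Per length of transcript (RPKM, the CPM divided by exon length in kilobases), Nr1d1 was highest, with a mean of 11.1 over the 18 libraries, followed by Clock at 10.2, Nr1d2 at 9.87, Per2 at 5.93, Arntl at 5.08, Per1 at 4.78, Dbp at 4.53, Cry1 at 3.10, Per3 at 2.16 and Cry2 at 2.06. This order did not hold within groups. Nr1d1 had the highest mean RPKM in WT day 7 (13.8, SD 1.38) and KO day 7 (12.2, SD 0.89), Nr1d2 in WT day 2 (16.5, SD 2.90) and KO day 2 (14.2, SD 1.32), and Clock in WT day 14 (9.85, SD 0.41) and KO day 14 (10.3, SD 0.98), with n = 3 each. The members also differed in how much they moved. Dbp spanned 15.9-fold between its highest and lowest library, Per3 10.3-fold and Nr1d2 6.18-fold, whereas Clock spanned 1.46-fold. The SD of log2 CPM across the 18 libraries was larger for Dbp than for 99.4% of tested genes and larger for Per3 than for 99.3%, and for Clock it was larger than for only 4.15%.

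Arntl (chr7:113207465-113314126 in mm10), the activator without which the loop stops, was at 18.4, 21.8 and 23.3 CPM in WT day 2 replicates 1, 2 and 3, at 33.7, 17.9 and 26.8 CPM in WT day 7 and at 58.2, 52.7 and 58.3 CPM in WT day 14. In KO mice it was at 22.9, 19.2 and 18.3 CPM at day 2, at 48.6, 43.2 and 53.4 CPM at day 7 and at 55.4, 50.4 and 65.6 CPM at day 14. The 9 libraries of KO day 7, WT day 14 and KO day 14 were thus all above the 9 others, and WT day 7, with 1 library below every day 2 library and 2 above, lay nearer to day 2. In WT mice Arntl rose 2.66-fold from day 2 to day 14 (log2 fold change 1.41, SE 0.18, adjusted p = 0.00117) and 2.15-fold from day 7 to day 14 (adjusted p = 0.0300). In KO mice it rose 2.41-fold from day 2 to day 7 (adjusted p = 0.000105), and KO exceeded WT 1.84-fold at day 7 (log2 0.88, SE 0.17, adjusted p = 0.0016) but not at day 14 (log2 0.02, SE 0.17, adjusted p = 0.967).

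Clock, the partner of ARNTL, was the steadiest member. It ran from 112 CPM in WT day 7 replicate 3 to 163 CPM in WT day 2 replicate 1, with group means between 125 CPM (SD 11.8, n = 3) in WT day 7 and 157 CPM (SD 6.29, n = 3) in WT day 2. No comparison called it by edgeR, and the day 7 against day 2 difference in WT had the smallest adjusted p (log2 -0.33, SE 0.12, adjusted p = 0.120).

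Per3 (chr4:151003652-151044665), a PER protein gene that is not needed for rhythm itself, was the member with the sharpest split. WT mice had 49.6, 45.9 and 24.4 CPM at day 2, 26.4, 44.0 and 27.1 CPM at day 7 and 9.44, 7.74 and 9.78 CPM at day 14. KO mice had 24.96, 43.0 and 27.6 CPM at day 2, 5.51, 4.91 and 6.99 CPM at day 7 and 4.80, 7.00 and 4.92 CPM at day 14. No library lay between 9.78 and 24.4 CPM. WT day 14 was at 22.5% of the WT day 2 level (log2 -2.15, SE 0.28, adjusted p = 0.00206), KO day 7 was at 17.9% of WT day 7 (log2 -2.48, SE 0.29, adjusted p = 2.04e-05) and KO day 14 was at 17.5% of KO day 2 (adjusted p = 6.33e-05).

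Per2, a core repressor that also responds to glucocorticoid, was at 49.5, 47.3 and 40.9 CPM in WT day 2, at 36.4, 40.9 and 29.0 CPM in WT day 7 and at 23.5, 14.4 and 16.3 CPM in WT day 14. KO libraries had 29.4, 68.9 and 54.1 CPM at day 2, 32.3, 32.1 and 35.9 CPM at day 7 and 24.2, 24.9 and 24.8 CPM at day 14. The KO day 2 mice ranged from below to above all KO day 7 mice. Per2 fell from day 2 to day 14 in both genotypes (WT log2 -1.36, SE 0.23, adjusted p = 0.00984; KO log2 -1.05, SE 0.23, adjusted p = 0.00611).

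Per1, the PER gene most readily induced by light, hormone and stress signals, ranged from 15.3 CPM in WT day 2 replicate 3 to 45.6 CPM in KO day 14 replicate 1. WT values overlapped between days, with 22.9, 24.9 and 15.3 CPM at day 2, 33.2, 24.7 and 19.7 CPM at day 7 and 18.7, 29.3 and 30.2 CPM at day 14. KO values were 16.97, 21.9 and 19.8 CPM at day 2, 26.1, 24.7 and 34.98 CPM at day 7 and 45.6, 39.4 and 35.9 CPM at day 14. Per1 rose 2.06-fold from day 2 to day 14 in KO mice (log2 1.04, SE 0.22, adjusted p = 0.00478), and all 3 KO day 14 libraries exceeded all 3 of WT day 14, a difference that missed the threshold (log2 0.62, SE 0.22, adjusted p = 0.0866).

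Cry1 and Cry2 encode the repressors that hold back ARNTL and CLOCK. Cry1 was at 12.3, 9.52 and 13.6 CPM in WT day 2, at 6.91, 7.86 and 6.53 CPM in WT day 7 and at 9.22, 8.29 and 8.16 CPM in WT day 14. KO mice had 11.8, 11.5 and 17.1 CPM at day 2, 11.6, 11.8 and 10.2 CPM at day 7 and 9.33, 7.95 and 12.9 CPM at day 14. WT day 7 was thus the low group for Cry1, and KO exceeded WT 1.58-fold at day 7 (log2 0.66, SE 0.19, adjusted p = 0.0207). Cry2 was lowest in WT day 14, at 5.44, 7.94 and 8.57 CPM, against 17.5, 13.4 and 16.98 CPM in WT day 2 and 10.6, 16.5 and 10.1 CPM in WT day 7. KO Cry2 values were 11.05, 16.4 and 14.7 CPM at day 2, 19.3, 14.9 and 12.9 CPM at day 7 and 10.6, 15.6 and 11.5 CPM at day 14, so all 3 KO day 14 libraries lay above all 3 WT day 14 libraries. The Cry2 fall from WT day 2 to WT day 14 (log2 -1.11, SE 0.23, adjusted p = 0.0228) and its KO excess at day 14 (log2 0.77, SE 0.23, adjusted p = 0.0445) both passed. Counting did not use strand, and Cry2 shares 295 exon bases with the opposite-strand gene D930015M05Rik, which reached at most 77 counts.

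Nr1d1 and Nr1d2 encode REV-ERB alpha and beta, which repress Arntl, Npas2, Nfil3 and Cry1. Nr1d2 was at 107, 83.3 and 77.5 CPM in WT day 2, at 50.8, 76.5 and 50.1 CPM in WT day 7 and at 21.2, 26.2 and 27.0 CPM in WT day 14. KO mice had 84.7, 73.8 and 71.1 CPM at day 2, 43.9, 42.2 and 43.2 CPM at day 7 and 26.1, 39.0 and 17.3 CPM at day 14. In WT mice the 3 days did not overlap for Nr1d2, with day 2 highest and day 14 lowest. The WT day 14 level was 27.9% of WT day 2 (log2 -1.84, SE 0.22, adjusted p = 0.00117, the smallest p of all 21349 genes in that comparison), and KO day 14 was at 36.0% of KO day 2 (adjusted p = 0.000424). KO against WT did not reach the threshold on any day (day 7 log2 -0.45, SE 0.22, adjusted p = 0.167).

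Nr1d1 moved less. It was at 38.8, 32.8 and 35.1 CPM in WT day 2, at 42.8, 38.1 and 46.6 CPM in WT day 7 and at 13.7, 29.1 and 27.1 CPM in WT day 14. In KO mice Nr1d1 was at 33.9, 46.8 and 29.8 CPM at day 2, at 34.9, 37.5 and 40.4 CPM at day 7 and at 28.8, 39.8 and 18.9 CPM at day 14. All 3 WT day 14 libraries lay below all WT day 2 and WT day 7 libraries, but no comparison called Nr1d1 (WT day 14 against day 2: log2 -0.60, SE 0.25, adjusted p = 0.198). Exons of Nr1d1 overlap those of Thra on the other strand by 263 bases, 8.55% of its exon length. Thra was at 56.4 to 94.2 CPM, so part of the Nr1d1 count may be Thra reads in every library.

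Dbp (chr7:45705088-45710203), a PAR bZIP output factor and one of the most rhythmic transcripts of peripheral tissues, was at 30.0, 18.7 and 21.1 CPM in WT day 2, at 14.1, 21.98 and 17.9 CPM in WT day 7 and at 2.27, 3.40 and 3.48 CPM in WT day 14. KO mice had 17.6, 34.4 and 22.6 CPM at day 2, 6.89, 7.62 and 7.99 CPM at day 7 and 2.79, 9.21 and 2.16 CPM at day 14. KO day 7 formed a tight middle level, below every WT day 7 library and above every WT day 14 library. KO day 14 replicate 2 stood apart from its 2 partners at the KO day 7 level. Dbp in WT day 14 was 13.4% of WT day 2 (log2 -2.90, SE 0.42, adjusted p = 0.0049) and 17.3% of WT day 7 (adjusted p = 0.0426). KO day 7 was at 41.9% of WT day 7 (log2 -1.26, SE 0.38, adjusted p = 0.0332). The lowest values rest on 30 to 86 counts in WT day 14 and on 53 and 32 counts in KO day 14 replicates 1 and 3. In addition, 18.01% of Dbp exon bases overlap Sphk2 on the opposite strand, which was at 46.4 to 86.8 CPM. Reads of Sphk2 may make up part of the lowest Dbp values.

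**Figure D2:**
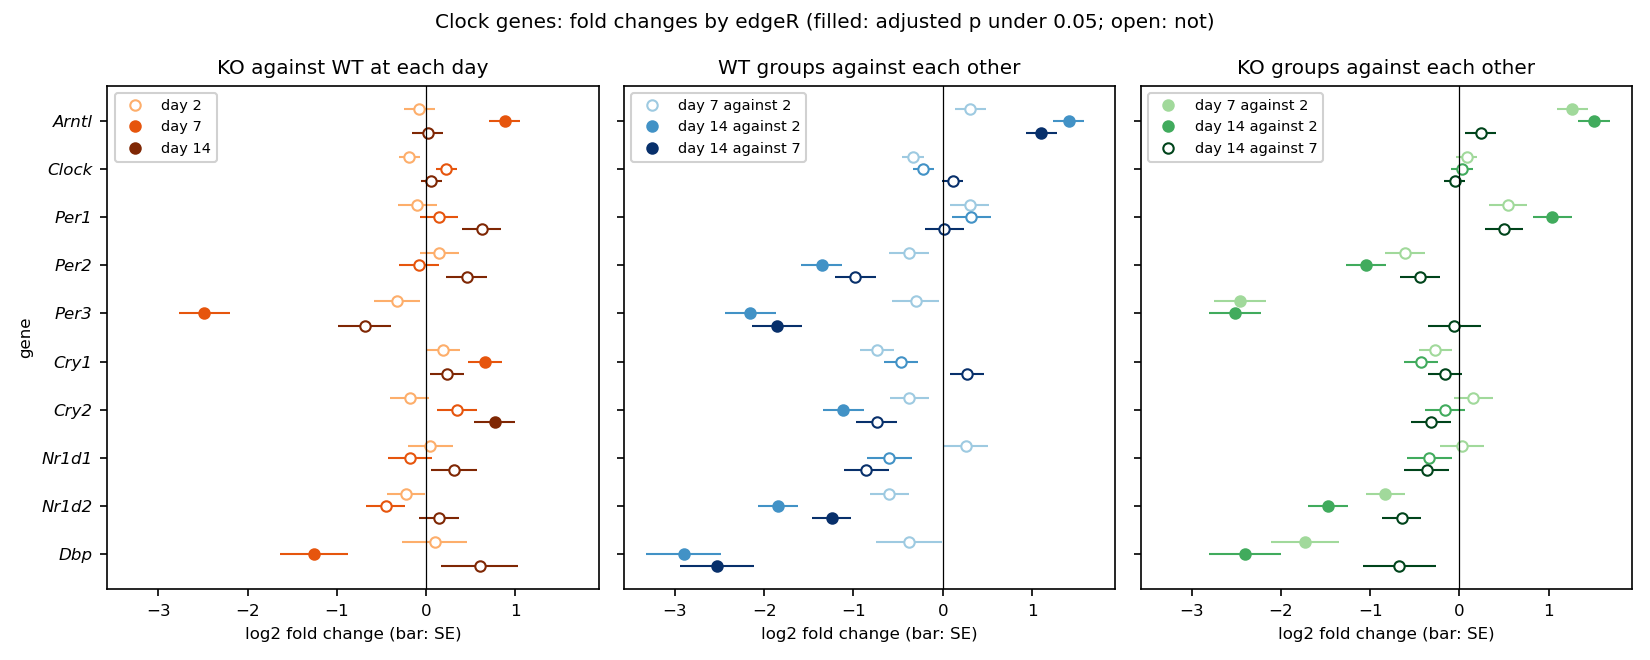
Log2 fold changes (x axis) with their SE for the 10 clock genes (y axis) in 9 comparisons of edgeR's quasi-likelihood test, KO against WT on the left, WT days in the middle and KO days on the right; filled points have an adjusted p under 0.05. Arntl lies to the right and Per3, Nr1d2 and Dbp to the left wherever a day 14 group is set against day 2, and no member is filled for KO against WT at day 2, WT day 7 against day 2 or KO day 14 against day 7.

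Between WT groups, the question was whether control mice of different days had the same clock gene levels, in mice whose collection times are not known. WT day 14 differed from WT day 2 in 6 of the 10 members, with Arntl higher and Per2, Per3, Cry2, Nr1d2 and Dbp lower, in a comparison that called 1.61% of all genes. The groups did not overlap for 9 of the 10 (Arntl higher, 8 lower), against 23.8% of all genes, and the median log2 fold change was -0.86 for the members and 0.01 for all genes tested. By p, Nr1d2 ranked 1, Arntl 2 and Per3 5 among the 21349 genes. Arntl, Per3, Nr1d2 and Dbp stayed called when any 1 of the 6 libraries was left out, in fits that called 22 to 712 genes in all. Per2 was lost without WT day 2 replicate 1 (adjusted p = 0.0609), and Cry2 was lost without WT day 2 replicate 1 or 3 or WT day 14 replicate 1 (adjusted p = 0.132, 0.0830 and 0.111). Enterocyte markers had a median log2 fold change of -1.20 in the same comparison, with none of the 6 called by edgeR. All 6 had an unadjusted p under 0.05, as had 20% of all genes. Their summed levels were 2928 to 8844 CPM in WT day 14 against 8723 to 19943 CPM in WT day 2. Of 8 immune cell markers (median log2 -0.15) none was called and 4 had an unadjusted p under 0.05. Immune cell markers summed to 78.3 to 144 CPM in WT day 14 against 149 to 202 CPM in WT day 2. The part of either list in the clock gene differences was not tested.

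WT day 14 differed from WT day 7 in 4 members, Arntl higher and Per3, Nr1d2 and Dbp lower, where only 17 of 21349 genes, or 0.0796%, were called at all. In this comparison Per3 ranked 2, Arntl 3, Dbp 9 and Nr1d2 10 by p. The groups did not overlap for 8 members (Arntl and Cry1 higher, 6 lower), against 10% of all genes. Without WT day 7 replicate 1, Per3 and Arntl were called among 10 genes. Without any 1 of the other 5 libraries no member and at most 1 gene was called, the adjusted p of Arntl then lying between 0.0522 and 0.170 and that of Per3 between 0.0887 and 0.170. The log2 fold changes themselves stayed between 0.90 and 1.33 for Arntl, between -1.98 and -1.58 for Per3, between -1.35 and -1.02 for Nr1d2 and between -2.68 and -2.36 for Dbp. A fit of these 6 libraries alone called Per3 and Dbp but not Arntl (adjusted p = 0.249) or Nr1d2 (adjusted p = 0.111).

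WT day 7 against WT day 2 called none of the members by edgeR, in a comparison that called 0.553% of genes. With 1 library left out, 0 to 535 genes were called. An unadjusted p under 0.05 was found for 3 members, Clock, Cry1 and Nr1d2, and for 22.4% of genes. DESeq2 called 2 of these, Clock (adjusted p = 0.0317) and Cry1 (adjusted p = 0.0113), in a fit that called 7.08% of all genes. Cry1 was lower at day 7 in every library (log2 -0.74, SE 0.19, adjusted p = 0.0593 by edgeR), and it was called by edgeR without WT day 2 replicate 2 (adjusted p = 0.0355) or when only the 2 groups were fitted (adjusted p = 0.0474). The groups did not overlap for 4 members (Clock, Per2, Cry1 and Nr1d2, all lower), against 28.4% of genes. Enterocyte markers had a median log2 fold change of -1.14 here, with 0 of 6 called and 4 at an unadjusted p under 0.05, and summed to 5890 to 8382 CPM in WT day 7 against 8723 to 19943 CPM in WT day 2. Their part in these differences was not tested.

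Among KO groups, day 7 differed from day 2 in 4 members, Arntl higher and Per3, Nr1d2 and Dbp lower, where 16% of all genes were called. Without KO day 2 replicate 1 the 4 called members were Per2, Per3, Dbp and Arntl, with Per2 gained (adjusted p = 0.00428) and Nr1d2 lost (adjusted p = 0.0589). KO day 14 differed from KO day 2 in 6 members, with Arntl and Per1 higher and Per2, Per3, Nr1d2 and Dbp lower, where 11.3% of genes were called. Each of the 6 stayed called without any 1 library. KO day 14 against KO day 7 called none by edgeR or DESeq2 (0.0468% of genes by edgeR), with 2 members, Per1 and Nr1d2, at an unadjusted p under 0.05, as were 9.27% of genes. In both genotypes Arntl was called higher and Per3, Nr1d2 and Dbp lower at day 14 than at day 2. The same 4 genes were called between day 7 and day 2 in KO mice and not in WT mice, but a difference between the genotypes in that change was called for Arntl and Per3 and not for Nr1d2 (log2 -0.23, SE 0.30, adjusted p = 0.764) or Dbp (log2 -1.35, SE 0.53, adjusted p = 0.181).

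Some cell type markers were called in the KO day comparisons as well. From day 2 to day 7, 16% of all genes were called. In that comparison 5 of 6 stem cell and proliferation markers were called lower in KO mice (median log2 -1.15), as were 5 of 5 Paneth cell markers (median log2 -2.28). In KO day 2 the first list summed to 2136 to 2585 CPM and the second to 7111 to 14830 CPM. From day 2 to day 14, where 11.3% of all genes were called, 2 of 6 and 2 of 5 were called lower. These 2 lists summed to 1718 to 2047 CPM and 4683 to 6325 CPM in KO day 14. Of the other lists, 1 of 6 enterocyte and 1 of 8 immune cell markers were called lower and 1 of 9 stromal cell markers higher from day 2 to day 7, and 1 stromal cell marker was called higher from day 2 to day 14. Their part in the clock gene differences was not tested.

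KO and WT mice of the same day were compared to ask what differed between the genotypes, again without known collection times. Only KO mice carried Cre, so loss of Prmt1 and activated Cre cannot be told apart in these comparisons. The paper proposes that genome toxicity of activated Cre might underlie many transient changes at day 7, which was not tested here. At day 2 none of the 10 members was called by edgeR or DESeq2, where edgeR called 0.0328% of all genes, and none had an unadjusted p under 0.05, as 3.33% of genes had. At day 7 edgeR called 4 members, Arntl and Cry1 higher and Per3 and Dbp lower in KO, while 17.3% of all genes were called. Arntl and Per3 stayed called without any 1 of the 6 libraries. Cry1 stayed called only without KO day 7 replicate 3 or WT day 7 replicate 2, and was between 0.0556 and 0.0794 in adjusted p without each of the other 4. Dbp stayed called only without WT day 7 replicate 1, and its adjusted p was 0.0713 to 0.126 without each of the other 5 and 0.0883 with no filter on low counts. The groups did not overlap for 6 members, against 33.6% of genes. Stem cell and proliferation markers summed to 876 to 1496 CPM in KO day 7 against 1817 to 2344 CPM in WT day 7, and Paneth cell markers to 1237 to 3344 CPM against 7378 to 12583 CPM. Enterocyte markers summed to 9630 to 15630 CPM against 5890 to 8382 CPM (median log2 0.81), with 1 of 6 called higher and 1 lower. Their part in the clock gene differences was not tested.

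At day 14 KO differed from WT in 1 member, Cry2, which was higher in KO, where 7.92% of all genes were called. This call was lost without KO day 14 replicate 2 (adjusted p = 0.186), KO day 14 replicate 3 (0.0710), WT day 14 replicate 1 (0.155) or WT day 14 replicate 2 (0.0793), and when only the day 14 groups were fitted (0.0588). The 4 members whose groups did not overlap were Per1, Per2 and Cry2 (higher in KO) and Per3 (lower), against 26.5% of genes. Among markers, 1 of 6 enterocyte markers was called higher (median log2 1.03), and 1 of 5 Paneth cell markers (median log2 -1.19) and 2 of 6 stem cell and proliferation markers (median log2 -0.43) were called lower. Enterocyte markers summed to 7981 to 16140 CPM in KO day 14 against 2928 to 8844 CPM in WT day 14, and their part in the Cry2 difference was not tested. The differences of Arntl, Dbp and Nr1d2 between KO and WT at day 14 were log2 0.02 (SE 0.17), 0.60 (SE 0.44) and 0.15 (SE 0.22).

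The KO effect itself was tested for a change between days. From day 2 to day 7 it changed for 2 members, by 0.96 on the log2 scale for Arntl (SE 0.25, adjusted p = 0.0326) and by -2.16 for Per3 (SE 0.38, adjusted p = 0.00423), where 4.37% of genes were called. The change was called for Per3 without any 1 of the 12 libraries, with an adjusted p of at most 0.0194. For Arntl it was lost without KO day 2 replicate 2 or 3, WT day 2 replicate 2 or 3, KO day 7 replicate 1, or WT day 7 replicate 2 or 3, with adjusted p between 0.0582 and 0.0777. Between day 2 and day 14 no member was called by edgeR or DESeq2 (1.04% of genes by edgeR), and 2 had an unadjusted p under 0.05, Per1 and Cry2, as had 11.9% of genes. Between day 7 and day 14 edgeR called no member and 0% of genes. Even so, 3 members, Arntl (log2 -0.86, SE 0.24), Per3 (1.80, SE 0.41) and Dbp (1.86, SE 0.58), had an unadjusted p under 0.05, as did 4.46% of all genes. DESeq2 called no member either (Per3 adjusted p = 0.0681). The KO against WT and day against day comparisons share libraries. Their values are given side by side and no overlap between them is drawn.

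**Figure D3:**
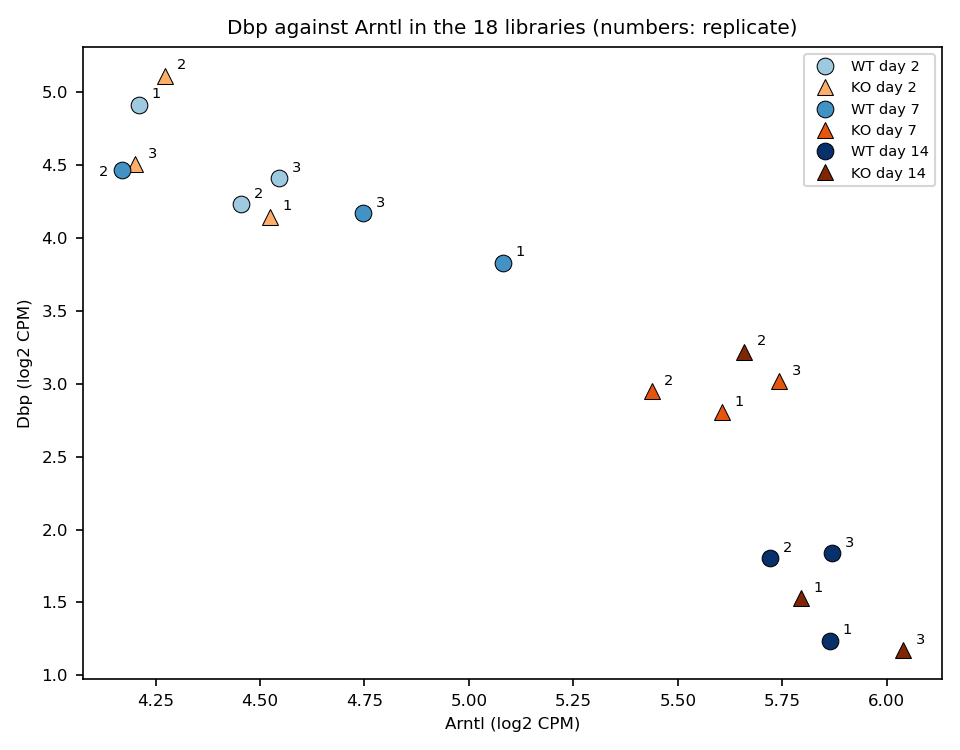
Dbp (y axis, log2 CPM) against Arntl (x axis, log2 CPM) in the 18 libraries, with the colour giving genotype and day and the number the replicate. The 6 day 2 and 3 WT day 7 libraries form 1 set at high Dbp and low Arntl, and the 3 KO day 7 and 6 day 14 libraries form another at low Dbp and high Arntl.

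Because Arntl and Dbp peak at opposite times, the difference of Dbp and Arntl in log2 CPM was taken as a single number for each mouse. It averaged 0.11 (SD 0.51) in WT day 2, 0.25 (SD 0.61) in KO day 2, -0.51 (SD 0.78) in WT day 7, -2.67 (SD 0.16) in KO day 7, -4.19 (SD 0.38) in WT day 14 and -3.86 (SD 1.26) in KO day 14, with n = 3 each. The largest of the 9 values of day 2 and WT day 7 was 0.84 in KO day 2 replicate 2 and the smallest -1.25 in WT day 7 replicate 1. The 9 other libraries ran from -2.44 in KO day 14 replicate 2 to -4.87 in KO day 14 replicate 3. An exact permutation test of 3 against 3 can reach a p of 0.1 at the lowest. No test of this number between groups was run.

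Single mice departed from their group in several members at once. WT day 7 replicate 2 had less Arntl than its group mean (by -0.50 in log2 CPM) and more Per3 (0.48), Cry2 (0.45), Nr1d2 (0.40) and Dbp (0.31). WT day 7 replicate 1 stood above its group mean in Arntl (0.42) and Per1 (0.39) and below it in Dbp (-0.33). WT day 14 replicate 1 stood below its group mean in Nr1d1 (-0.68), Per1 (-0.44), Cry2 (-0.39) and Dbp (-0.39) and above it in Per2 (0.41). KO day 14 replicate 2 stood above its group mean in Dbp (1.24), Nr1d2 (0.58), Nr1d1 (0.51), Per3 (0.35) and Cry2 (0.33), and replicate 3 of the same group stood below it in Dbp (-0.80), Nr1d2 (-0.59) and Nr1d1 (-0.56) and above it in Cry1 (0.38) and Arntl (0.21). In WT day 2, replicate 1 stood above its group mean in Dbp (0.39) and Per3 (0.38), and replicate 3 below it in Per3 (-0.64) and Per1 (-0.43). Within KO day 2, replicate 2 was above its group mean in Per2 (0.53), Dbp (0.52), Per3 (0.47) and Nr1d1 (0.37), and replicate 1 was below it in the same 4 genes (-0.70, -0.44, -0.31 and -0.09). The time of collection of each mouse is not given in the sources used here, and its part in these departures was not tested.

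Beside the ranking of likeness given further on, 3 relations between Arntl, Nr1d1 and Dbp were computed across libraries. Correlations over all 18 libraries span the 2 sets described above, so their values and permutation p are not used as results. Values within each set of 9 are given as a description with no p, since the sets were drawn after the values of Arntl and Dbp were seen and each set mixes groups of different means. Among the libraries of day 2 and WT day 7, Pearson's r was -0.780 for Arntl and Dbp (Spearman's rho -0.750), 0.144 for Nr1d1 and Dbp (rho 0.1) and 0.359 for Arntl and Nr1d1 (rho 0.317). Among those of KO day 7 and day 14, r was -0.785 for Arntl and Dbp (rho -0.700), 0.877 for Nr1d1 and Dbp (rho 0.917) and -0.710 for Arntl and Nr1d1 (rho -0.733). Without the 2 libraries farthest from the median of Arntl, r of Arntl and Dbp was -0.597 in the first set and -0.762 in the second, and that of Arntl and Nr1d1 turned to -0.266 in the first and was -0.696 in the second. Without the 2 farthest from the median of Nr1d1, r of Nr1d1 and Dbp turned to -0.195 in the first set and was 0.958 in the second.

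With each group's mean taken off, so that only differences between mice of 1 group were left, Nr1d1 and Dbp still moved together over the 18 libraries (r = 0.743, permutation p = 0.00052, adjusted 0.00156; rho = 0.651, permutation p = 0.0046) and Arntl and Dbp moved apart (r = -0.567, permutation p = 0.0175, adjusted 0.0263; rho = -0.651, permutation p = 0.00444). Without their 2 farthest libraries these were 0.695 (permutation p = 0.00222) and -0.634 (permutation p = 0.00589). Arntl and Nr1d1 gave r = -0.183 (permutation p = 0.465; rho = -0.203). The permutations treat the 18 deviations as exchangeable, which ignores that 3 of each group sum to 0, and Nr1d1 and Dbp each share exon bases with a neighbour on the other strand.

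A second list held 21 further genes of the clock and its output, of which 19 could be tested (all but Rorb and Bhlhe41). In WT day 14 against WT day 2, 2 of the 19 rose (Npas2 and Nfil3) and 4 fell (Tef, Hlf, Usp2 and Nampt), where 1.61% of all genes were called, with a median log2 fold change of -0.07 against 0.01 for all genes. In WT day 14 against WT day 7, 1 rose (Npas2) and 1 fell (Tef), where 0.0796% of all genes were called. In KO against WT at day 7, 3 were higher in KO (Npas2, Noct and Nampt) and 3 lower (Hlf, Wee1 and Fbxl21), where 17.3% of all genes were called. At day 14 Ciart was higher and Wee1 lower, 2 of 19 where 7.92% of all genes were called. Among KO groups, Npas2 rose and Hlf and Wee1 fell from day 2 to day 7, 3 of 19 where 16% of all genes were called. From day 2 to day 14 Npas2 and Csnk1e rose and Tef, Hlf and Usp2 fell, 5 of 19 where 11.3% of all genes were called. Nampt alone was called in WT day 7 against day 2, where it fell and 0.553% of all genes were called. KO against WT at day 2 called none of the 19 by edgeR, where 0.0328% of all genes were called. An unadjusted p under 0.05 was found there for 1 of the 19 and for 3.33% of all genes. KO day 14 against day 7 called none either (0.0468% of all genes), with 4 at an unadjusted p under 0.05, as were 9.27% of genes.

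**Figure D4:**
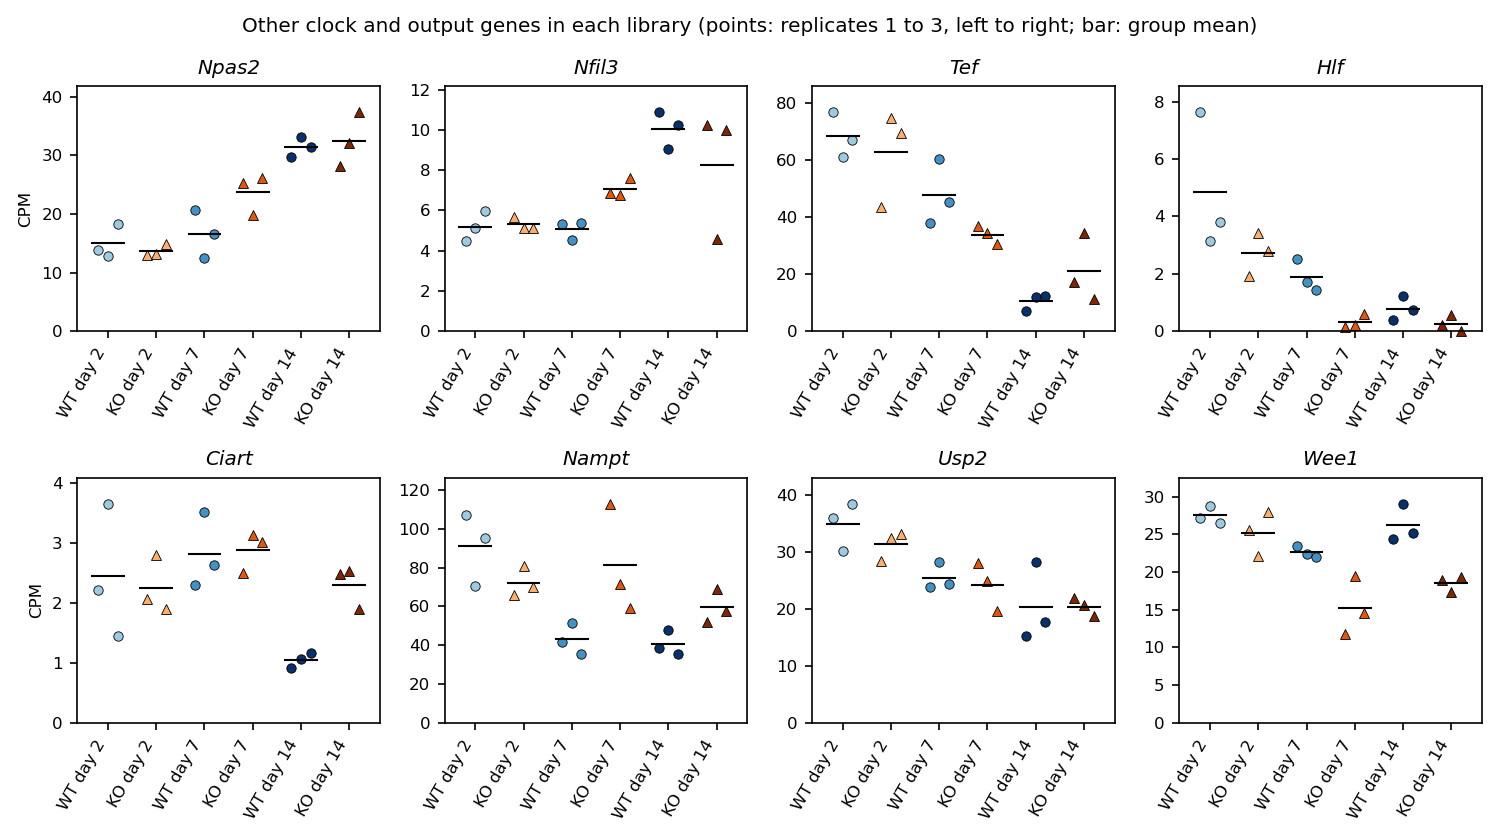
CPM (y axis, from 0) of 8 further clock and output genes in the 18 libraries, by genotype and day; circles are WT, triangles are KO, and the bar is the group mean of 3 libraries. Npas2 is higher and Tef and Hlf are lower in the day 14 groups than in the day 2 groups, and Nfil3 in KO day 14 replicate 2 lies at the day 2 level.

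Npas2, which can stand in for CLOCK, was at 13.9, 12.9 and 18.3 CPM in WT day 2, 20.7, 12.5 and 16.6 CPM in WT day 7 and 29.7, 33.1 and 31.4 CPM in WT day 14. In KO mice Npas2 was at 13.05, 13.1 and 14.9 CPM at day 2, 25.3, 19.9 and 26.1 CPM at day 7 and 28.1, 32.0 and 37.4 CPM at day 14. It was called in 5 comparisons, among them WT day 14 against day 7 (log2 0.92, SE 0.17, adjusted p = 0.0487) and KO against WT at day 7 (log2 0.51, SE 0.17, adjusted p = 0.0462). As with Arntl, WT day 7 replicate 2 had the lowest value of its group and of all WT libraries.

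Tef and Hlf are the other PAR bZIP factors, relatives of DBP. Tef was at 76.8, 61.2 and 67.1 CPM in WT day 2, at 38.1, 60.6 and 45.2 CPM in WT day 7 and at 7.18, 12.1 and 12.4 CPM in WT day 14. KO mice had 43.7, 75.0 and 69.7 CPM of Tef at day 2, 36.9, 34.3 and 30.6 CPM at day 7 and 17.4, 34.3 and 11.3 CPM at day 14, where replicate 2 was again the high library. Tef fell from day 2 to day 14 in WT (log2 -2.68, SE 0.34, adjusted p = 0.00206) and in KO (log2 -1.58, SE 0.32, adjusted p = 0.00521). Hlf was low throughout, at most 7.63 CPM in WT day 2 replicate 1 and 0 CPM in KO day 14 replicate 3, and was called lower in KO than in WT at day 7 (log2 -2.59, SE 0.59, adjusted p = 0.00508).

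Nfil3 encodes a repressor that binds the same D-box as DBP and is itself repressed by REV-ERB. It was at 4.47, 5.12 and 5.98 CPM in WT day 2, at 5.32, 4.54 and 5.39 CPM in WT day 7 and at 10.9, 9.04 and 10.2 CPM in WT day 14 (day 14 against day 2 log2 0.95, SE 0.22, adjusted p = 0.0388). KO day 14 replicates 1 and 3 had 10.2 and 9.98 CPM, but replicate 2, the library with the most Dbp of that group, had 4.61 CPM. Ciart, a repressor with 3 CACGTG in its promoter window, was at 0.907, 1.07 and 1.16 CPM in WT day 14 and between 1.45 and 3.65 CPM in every other library.

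Further genes of the list differed between KO and WT. Wee1, a cell cycle kinase under clock control, was at 11.8, 19.5 and 14.6 CPM in KO day 7 against 23.5, 22.4 and 22.03 CPM in WT day 7 (log2 -0.56, SE 0.15, adjusted p = 0.0120) and was also lower in KO at day 14 (log2 -0.50, SE 0.15, adjusted p = 0.0416). Nampt, which makes NAD from nicotinamide, was at 113, 71.5 and 59.1 CPM in KO day 7 against 41.7, 51.7 and 35.6 CPM in WT day 7 (log2 0.92, adjusted p = 0.0053). Noct, a phosphatase of NADPH, was higher in KO at day 7 (log2 1.15, adjusted p = 0.0058). Fbxl21 was lower (log2 -1.03, adjusted p = 0.022). Csnk1e, a kinase of PER proteins, was called only in KO day 14 against day 2 (log2 0.56, adjusted p = 0.021), and Usp2, a deubiquitinase, was lower at day 14 than at day 2 in WT (log2 -0.77, adjusted p = 0.043) and in KO (log2 -0.62, adjusted p = 0.034).

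Glucocorticoid, which also varies over the day and with stress, was followed through 8 responsive genes, all tested. At day 7, 3 of the 8 were higher in KO (Fkbp5, Mt1 and Mt2), where 17.3% of all genes were called. At day 14 1 of the 8 was higher (Fkbp5), where 7.92% of all genes were called, while Dusp1, Klf9, Sgk1, Tsc22d3 and Zbtb16 passed in no comparison. Fkbp5, a chaperone of the glucocorticoid receptor, was at 97.2, 68.9 and 134 CPM in WT day 2, 78.2, 78.4 and 71.7 CPM in WT day 7 and 50.2, 35.6 and 25.4 CPM in WT day 14, a fall from day 2 to day 14 (log2 -1.43, SE 0.31, adjusted p = 0.0370). In KO mice Fkbp5 was at 81.1, 79.4 and 111 CPM at day 2, at 174, 145 and 140.3 CPM at day 7 and at 143, 91.5 and 52.5 CPM at day 14, above WT at day 7 (log2 1.01, SE 0.31, adjusted p = 0.0328) and at day 14 (log2 1.37, SE 0.31, adjusted p = 0.0120). Mt2, a metallothionein that metals induce as well, was also higher in KO at day 7 (log2 2.64, adjusted p = 0.011), as was Mt1 (log2 1.48, adjusted p = 0.025). In KO day 7 against KO day 2, Mt2 was the 1 gene of the 8 called, and was higher, where 16% of all genes were called.

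Likeness to Arntl and to Dbp was measured by Pearson's r of log2 CPM over the 18 libraries among 17079 genes with a mean of at least 1 CPM, as a ranking without a p, since the libraries fell into the 2 sets above. The gene most like Arntl was Npas2 (r = 0.955), followed by Tmem252, CT010467.1, Ern1, Dhdds, Ypel2 and Gm42418. Gm45355, the eighth, shares 33 exon bases with Arntl on the opposite strand. The 3 genes most opposite to Arntl were all members, Dbp (r = -0.932), Nr1d2 (-0.924) and Per3 (-0.923), and Tef was the fifth (-0.874). The genes most like Dbp were Tef (r = 0.962) and Nr1d2 (0.959), then Lnx1, Mertk, Mpp4, Hace1, Mgam, Abcb1a, Per3 (0.851) and Bcat2. Those most opposite to it were Arntl, Nfil3 (r = -0.923), Tmem252, CT010467.1 and Npas2 (-0.897).

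With group means taken off, the genes most like Dbp were Rai14 (r = 0.931), Osbpl1a (0.926) and Tef (0.917), while 4930413F20Rik (-0.887) and Nfil3 (-0.875) were the most opposite. Nr1d2 (0.775) ranked 31 and Nr1d1 (0.743) ranked 45 from the positive end of the 17079 genes, and Arntl (-0.567) ranked 16797. Other genes were less like Dbp, or less opposite to it, than over all libraries. The r with Dbp went from -0.897 to -0.208 for Npas2, from 0.822 to 0.224 for Per2 and from 0.783 to 0.279 for Usp2. For Arntl with group means taken off, the most like genes were Kctd20 (r = 0.882), Sla (0.844) and Gm36043 (0.828) and the most opposite Mtg2 (-0.840), Neto1 (-0.830) and Phax (-0.829). Npas2 (0.717) then ranked 59 from the positive end, and Dbp (-0.567) ranked 16656, Nr1d2 (-0.638) 16901 and Per3 (-0.520) 16390.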

How the data were processed

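RNA-Seq of small intestinal crypts gave 18 libraries. The authors aligned reads to mm10 with STAR 2.7.3 and deposited raw gene counts from featureCounts 1.6.4, as the file's command line and the submitters' processing notes state; HTSeq is named as well. Fragments were counted without strand and for every gene they overlapped, so overlapping genes share reads. The GENCODE release in the command line is older than the one in the study's methods. The counts were whole numbers, none were duplicated between libraries, and 0 columns were left unused.

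The 20 genes that the study removed were left out here too. Genes were filtered with filterByExpr of edgeR 4.0.16 (R 4.3.3, limma 3.58.1) and scaled by TMM. All 18 libraries were fitted with 1 mean per group by quasi-likelihood in edgeR, with robust dispersions, and 12 contrasts were tested over 21349 genes with Benjamini-Hochberg adjustment (threshold 0.05). Adjusted p-values are from this test unless DESeq2 1.42.0 is named. The script was tested on simulated data. CPM used TMM library sizes, and log2 CPM a prior count of 2. Correlations with group means taken off were tested by 100000 permutations, two-sided, adjusted over 3 relations, and other correlations are given without a p. Motif letters were searched on both strands of RefSeq promoter windows.

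Genes named were all 10 members, the genes of both further lists that passed in any comparison, and those most like Arntl or Dbp. 1 gene of the further clock list is not reported here and was left out of its counts. Members and lists were chosen with earlier results of these data known. Replicates were separate mice. The libraries share replicate numbers in the labels, which do not say that same-numbered mice were paired. Only in KO against WT at day 14 did every same-numbered pair correlate above 0.1 in its deviations (0.227, 0.180 and 0.159). The main fit used no pairing, and a replicate block was used only as an alternative.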

Additional observations from a re-analysis of the deposited data

Results flagged for a closer look

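The KO effect differed between day 7 and day 2, by edgeR's test of that difference, for 2 clock genes and 1 further gene. The effect at day 7 minus that at day 2 was 0.96 (log2, SE 0.25) for Arntl and -2.16 (log2, SE 0.38) for Per3. For Nampt, an enzyme of NAD synthesis, it was 1.25 higher (adjusted p = 0.023), from log2 -0.33 to 0.92. The WT level of Nampt was lower at day 7, at 35.6 to 51.7 CPM against 70.5 to 107 CPM on day 2. For Arntl and Per3 the WT libraries of the 2 days overlapped and the KO libraries did not. What set the day 7 groups apart was not tested.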

How the results depend on the processing

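The 49 log2 fold changes of members with an unadjusted p under 0.05 kept their sign under every alternative. Of the alternative fits of these, 14 brought a call and 56 lost one, most of these on leaving out 1 library. With no filter on low counts, 2 members were called for KO against WT at day 14 (Cry2 and Per1), where 4.66% of all genes were called. For WT day 7 against day 2 it was 1 (Cry1, 2.59% of genes). The change of the KO effect from day 2 to day 14 also had 1 (Cry2, 1.11% of genes). KO day 7 against day 2 had 6 in place of 4 (Per1 and Per2 gained, 8.45% of genes). WT day 14 against day 7 lost Dbp (adjusted p = 0.0646) and gained Per2 (0.151% of genes). Fitting only the groups compared gave 0 for KO against WT at day 14 (6.52% of genes). It gave 1 for WT day 7 against day 2 (2.87% of genes) and 2 for WT day 14 against day 7 (0.0202% of genes). It also lost Dbp in KO day 14 against day 2 (adjusted p = 0.0604), Cry2 in WT day 14 against day 2 (0.0662) and Arntl in the change of the KO effect from day 2 to day 7 (0.0532), where Dbp was called instead (0.0361). For WT day 7 against day 2 DESeq2 gave 2 (7.08% of genes) and a mean count of at least 50 gave 1 (3.47% of genes). DESeq2 gave 5 for WT day 14 against day 7 (Per2 gained, 0.23% of genes). DESeq2 called more genes in all, 1511 against 118 for WT day 7 against day 2, 1383 against 343 for WT day 14 against day 2, 49 against 17 for WT day 14 against day 7 and 222 against 10 for KO day 14 against day 7. Leaving out 1 library at a time gave 2 to 3 members for KO against WT at day 7, among 2051 to 4117 genes called. At day 14 it gave 0 to 1 among 1041 to 1334 genes. It gave 0 to 1 for WT day 7 against day 2 (0 to 535 genes) and 0 to 2 for WT day 14 against day 7 (0 to 10 genes). For the change of the KO effect from day 2 to day 7 it gave 1 to 2 (431 to 1295 genes). The correlation of Arntl and Nr1d1 over all libraries, which span the 2 sets and give a description only, ran from -0.566 to -0.424 with 1 library left out, was -0.183 with group means taken off, and turned to 0.359 within day 2 and WT day 7, where that of Nr1d1 and Dbp was 0.144; both were negative there without their 2 farthest libraries (-0.266 and -0.195). The cause was not tested.

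With the replicate number as a block within day 14, Cry2 stayed the 1 member called for KO against WT. That fit called 1802 genes in all, against 1690 without the block. The labels do not say that same-numbered mice were paired. Correlations of same-numbered libraries ran from -0.234 to 0.381 over all comparisons. The block over all days gave 3 members in place of 4 for WT day 14 against day 7 (Nr1d2 adjusted p = 0.0518). It changed no other member call. With it, 19 genes were called in place of 118 for WT day 7 against day 2, and 173 in place of 343 for WT day 14 against day 2. Depth limits Dbp in the day 14 groups, Hlf and Ciart, whose lowest libraries hold few counts.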
